A study of Mus musculus with 3 samples.

Results

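Immediate early genes are switched on within minutes of a stimulus without new protein synthesis, and the inducible heat shock genes are switched on by protein damage. Both were examined here in single nuclei of mouse dorsal root ganglia (DRG), the ganglia that hold the cell bodies of sensory neurons. The members are 8 immediate early genes, Fos, Fosb, Junb, Egr1, Ier2, Nr4a1, Dusp1 and Zfp36, and 2 inducible heat shock genes, Hspa1a and Hspa1b. They were taken by symbol from a list made with earlier results of these data known, and all 10 of 10 were found among the 32227 genes of the series. The L3 to L5 ganglia came from C57BL/6 mice labelled male, 1 library at 3 months (adult) and 2 libraries at 21 months (aged replicates 1 and 2), with no other treatment or allele in the labels. These ages are those of the sample labels, which differ from those in the text that describes the series. The sex in the labels also differs from the study's general account of its animals, in which aged mice were female. Its methods for explant cultures, however, name mice of both sexes. Xist, the RNA that silences 1 X chromosome in female cells, stood at 1414 UMIs per 1000000 in nuclei of the adult library and at 844 and 929 in those of the aged libraries, and the Y-linked gene Ddx3y at 20.6, 13.2 and 7.87, so every library labelled male held abundant Xist and some Y-linked RNA. Other Y-linked genes were lower, Uty at 2.73, 1.00 and 0.718 and Kdm5d at 1.01, 0.591 and 0.611, and Eif2s3y had 9, 3 and 1 UMIs in all. The sex of the mice is therefore not taken as known here. The study calls the libraries biological replicates, and the number of mice in each is not given in the sources used here. A p-value therefore concerns the spread between libraries, which was estimated with information shared over genes and not from a gene alone.

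Fos, FosB and JunB are subunits of the AP-1 transcription factor. Egr1 is a zinc finger transcription factor, Nr4a1 an orphan nuclear receptor and Ier2 a nuclear regulator. Dusp1 removes phosphate from MAP kinases and Zfp36 binds AU-rich messenger RNAs and speeds their decay, so that both act as brakes on the signals that induce them. Hspa1a and Hspa1b encode the inducible HSP70 chaperone, and are transcribed when the heat shock factor HSF1 binds their promoters. In DRG these genes are known to respond to nerve injury and neuronal activity, and also to the handling of tissue and the dissociation of cells. The ganglia of this series were put on dry ice at collection, and nuclei were isolated from the frozen tissue. The counts are thus meant to be of nuclear RNA, although some neuron clusters held little of the nuclear RNA Malat1, as given below.

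The promoters of 4 members are printed as examples of the motifs that the regulators of these genes are known to bind. Nr4a1 and Dusp1 held the most CRE half-sites of the members searched, and Hspa1a and Hspa1b are near copies that each held 1 heat shock element pair. Each line holds the 250 bases before the RefSeq start of the gene (assembly GRCm38.p6, 5′ to 3′ on the strand of the gene). Capitals in the first pair mark the cyclic AMP response element (CRE) half-site TGACG on either strand, and in the second pair the heat shock element pair GAANNTTC.
Nr4a1, chr15:101266596-101266845, plus strand: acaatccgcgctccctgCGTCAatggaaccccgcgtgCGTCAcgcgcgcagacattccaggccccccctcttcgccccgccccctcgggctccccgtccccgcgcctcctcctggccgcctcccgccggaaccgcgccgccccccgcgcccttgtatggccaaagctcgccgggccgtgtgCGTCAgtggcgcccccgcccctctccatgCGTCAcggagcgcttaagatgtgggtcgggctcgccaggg
Dusp1, chr17:26508473-26508722, minus strand: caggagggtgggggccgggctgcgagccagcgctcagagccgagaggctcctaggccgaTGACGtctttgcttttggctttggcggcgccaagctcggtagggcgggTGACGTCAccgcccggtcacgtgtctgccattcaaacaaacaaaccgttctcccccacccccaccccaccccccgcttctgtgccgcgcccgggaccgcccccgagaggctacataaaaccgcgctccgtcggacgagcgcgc
Hspa1a, chr17:34972157-34972406, minus strand: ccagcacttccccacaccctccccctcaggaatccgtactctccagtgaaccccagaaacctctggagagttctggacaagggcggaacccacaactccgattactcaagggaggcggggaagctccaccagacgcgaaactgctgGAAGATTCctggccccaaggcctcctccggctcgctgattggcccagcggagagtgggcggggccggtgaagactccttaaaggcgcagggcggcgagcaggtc
Hspa1b, chr17:34959239-34959488, minus strand: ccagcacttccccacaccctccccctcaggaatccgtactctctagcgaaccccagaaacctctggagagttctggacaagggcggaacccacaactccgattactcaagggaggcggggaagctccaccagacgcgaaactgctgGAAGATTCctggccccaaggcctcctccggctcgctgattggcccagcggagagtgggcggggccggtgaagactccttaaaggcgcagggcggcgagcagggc

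The promoters of 8 of the 10 members were found in the RefSeq table. The half-site TGACG stood 4 times in the Nr4a1 window, 3 times in that of Dusp1, 2 times in that of Fos and once each in those of Fosb and Junb, against 17.9% of all 27025 promoters of the same length that held it at least once. The full palindrome TGACGTCA, which holds a half-site on each strand, stood in the Dusp1 window and in 1.62% of all promoters. The AP-1 site TGANTCA was in none of the 8 windows and in 6.87% of all promoters. Zfp36 had 1 CArG box, the site of serum response factor, which 1.4% of promoters held. The pair GAANNTTC stood once in each of the windows of Hspa1a and Hspa1b and in 6.78% of all promoters. A match of letters is a description of the window and not a bound site.

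The 2 heat shock genes are neighbours and near copies. On mm10 in GENCODE M21, Hspa1a is at chr17:34969190-34972156 and Hspa1b at chr17:34956436-34959238, both on the minus strand, with 1 exon each and 9951 bases between them. Their printed promoter windows had the same base at 247 of 250 positions (98.8%). Of the 50-base runs in the Hspa1a transcript 58.8% were also in Hspa1b, and 62.3% of those of Hspa1b were in Hspa1a, but none of the runs in the last 500 bases were shared. The counts come from a 3′ chemistry, and how reads shared by both genes were assigned is not given in the sources used here, so the split between Hspa1a and Hspa1b is uncertain. Nr4a1 is at chr15:101254269-101274795, plus strand, and Dusp1 at chr17:26505590-26562128, minus strand. Dusp1 overlaps AC122252.1 on the same strand by 1853 bases, so that their reads could be split whether or not strand was used, and Ergic1 on the other strand by 640 bases, Junb overlaps Prdx2 by 351, Zfp36 overlaps the antisense gene Gm44710 by 1274 and Hspa1a overlaps Gm20481 by 2225, and no source used here says whether the counting used strand.

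The libraries held 167664164, 95647106 and 69045987 unique molecular identifiers (UMIs) in the order adult, aged replicate 1 and aged replicate 2, an order kept for all values below. Nuclei were the barcodes with over 1000 genes, 11518, 5130 and 2611 of them, with median UMIs of 3269, 4317.5 and 4900. These barcodes held 53.8%, 58.4% and 54.5% of the UMIs, and each library shared at most 1 nucleus barcode with another. Clusters were named from marker genes, and UMIs were summed by library and class: satellite glial cell (SGC)-like, Schwann cell-like of the non-myelinating (NMSC) and the myelinating kind (MSC), neuron-like, fibroblast-like, endothelial-like, myeloid-like and B cell-like, and a cluster with markers of both cycling and erythroid cells. Mural-like nuclei were too few for a test, 56, 18 and 3. Malat1, a nuclear RNA, took 8.59%, 2.04% and 2.20% of SGC-like UMIs, so the libraries of the 2 ages also differed in a measure of nuclear content.

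All members are of low abundance in these nuclei. Over the kept nuclei the libraries held 1488, 827 and 404 UMIs of Nr4a1, the member with most in the adult library, and 58, 14 and 14 of Fosb, the one with fewest. Levels are given as CPM, the UMIs of a gene per 1000000 UMIs of the class, and levels of different genes were not compared because the counts were not set per length. The level of free RNA was read from barcodes with 10 to 100 UMIs. Of 21 sums, those of 7 classes in 3 libraries, 17 lay above the free RNA level of the same library for Nr4a1, 15 for Zfp36, 12 each for Fos and Fosb, 11 for Egr1 and 10 for Ier2. The same count was 7 for Junb, 6 for Hspa1a, 4 for Hspa1b and 3 for Dusp1, for which free RNA stood at 29.8, 21.9 and 25.5 CPM. By its level alone, a sum below the free RNA level cannot be told apart from RNA that entered the droplets with the nuclei. The share of free RNA in the nuclei was not measured, and an alternative below takes it as 10%. For Dusp1 in these 7 classes every sum outside the fibroblast-like and endothelial-like classes was below that level.

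**Figure D1:**
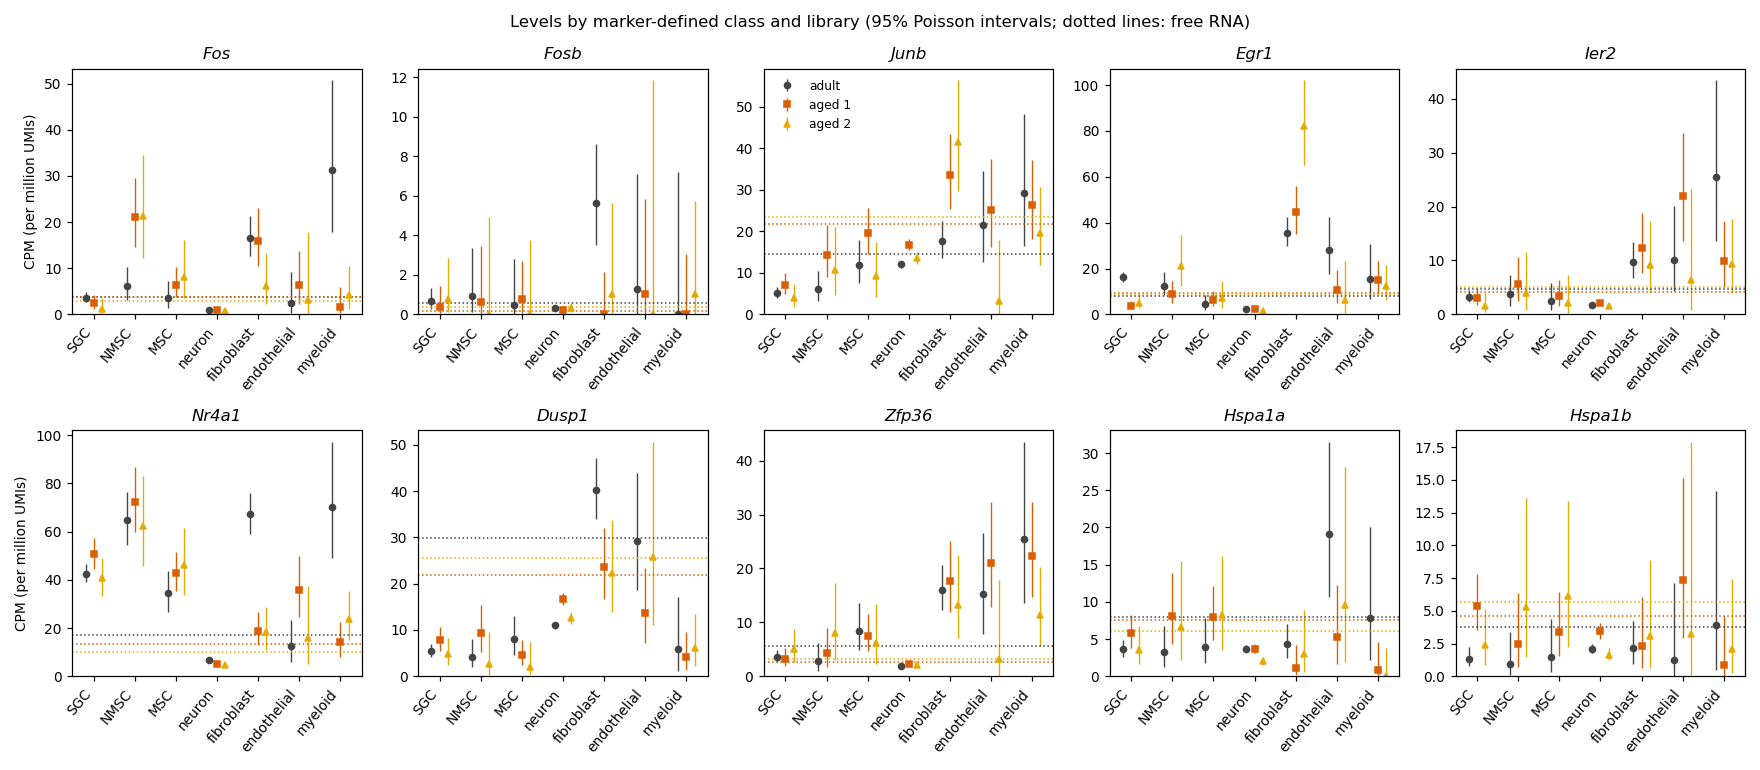
Level of each member (1 panel per gene, CPM on a linear axis that starts at 0 and differs between panels) in 7 classes named from markers. Points are the 3 libraries with exact Poisson 95% intervals, which cover counting error only, and dotted lines are the free RNA level of the library of the same colour; Nr4a1 stands between 34.4 and 72.4 CPM in the 3 glial classes and between 4.84 and 6.65 CPM in neuron-like sums.

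Each class was contrasted with the average over the remaining classes, in a fit blocked by library. Of 45 tests on members 17 passed an adjusted p of 0.05, 12 higher and 5 lower, against 31.2% of all genes tested. Of 63 member tests, 18 were left out because the gene had 0 UMIs in a class. Such genes were kept in the shares of all genes, so the 2 counts are not fully alike. Fibroblast-like sums had 4 of 5 testable members called, all higher (30.5% of all genes passed in that contrast). In neuron-like sums 4 of 5 passed as well, 3 lower and 1 higher, where 58.7% of all genes passed. SGC-like (32.6% of all genes) and MSC-like sums (32.2%) had 1 member higher and 1 lower each, and myeloid-like sums had 2 higher (40.7%). NMSC-like (22.2%), endothelial-like (19.3%) and B cell-like sums (20.2%) had 1 higher member each, and the cycling and erythroid-like sums had none (24.6%). With 5 testable members in a class, shares of 1 or 2 members are near those of all genes.

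Fos and Ier2 had 0 UMIs in every cycling and erythroid-like sum, which allows up to 50.4, 25.3 and 20.3 CPM, and so had no finite contrast. Their contrasts were taken from a fit without that class, an alternative chosen after seeing the data. Fosb and Hspa1b had too few UMIs for any test between classes, and Hspa1a was tested only in the fit without that class, where it passed in none of 8 classes.

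Among the AP-1 subunits, Fos had its highest mean over the 3 libraries in NMSC-like sums, at 16.2 ± 8.8 CPM (mean ± SD, n = 3 libraries), followed by fibroblast-like sums at 12.9 ± 5.9 and myeloid-like sums at 12.3 ± 16. That order rests on the aged libraries, with 21.2 and 21.3 CPM in NMSC-like sums. In the adult library myeloid-like (31.3 CPM) and fibroblast-like sums (16.6 CPM) stood above NMSC-like sums (6.05 CPM). It was at 6.03 ± 2.4 CPM in MSC-like, 4.02 ± 2.0 in endothelial-like and 2.40 ± 1.2 in SGC-like sums, and at 0.932 ± 0.13 in neuron-like sums. In that order the SGC-like and neuron-like ranges did not overlap. Neuron-like and cycling and erythroid-like values did not overlap either, but the latter held 0 UMIs, which allows levels above those of neuron-like sums. These 2 classes thus cannot be ordered. All other neighbours overlapped. In the fit without the cycling and erythroid-like class, Fos was higher in NMSC-like sums by 1.88 on the log2 scale (SE 0.50, adjusted p = 0.0073, 22.8% of all genes called), and in fibroblast-like sums by 1.52 (SE 0.47, adjusted p = 0.016, 32.0% called). It was lower in neuron-like sums, at -2.52 on the log2 scale (SE 0.63, adjusted p = 0.0012, 62.3% called).

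Fosb was seen in few nuclei of any class. Its 21 UMIs in adult fibroblast-like nuclei (5.63 CPM, exact Poisson 95% interval 3.48 to 8.60, counting error only) stood against 0 and 1 UMIs in the aged fibroblast-like sums. Neuron-like sums held 21, 8 and 9 Fosb UMIs, or 0.323, 0.206 and 0.304 CPM. The remaining class sums held at most 8 UMIs of Fosb each.

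Junb, the third AP-1 subunit, was at 17.7, 33.5 and 41.6 CPM in fibroblast-like sums and at 29.3, 26.4 and 19.6 CPM in myeloid-like sums. It was higher than in the other classes in both, by 1.36 (SE 0.27, adjusted p = 0.00027) and by 1.03 (SE 0.32, adjusted p = 0.012) on the log2 scale. In SGC-like sums it was at 5.08, 7.17 and 3.94 CPM and lower than elsewhere, at -1.13 on the log2 scale (SE 0.41, adjusted p = 0.034). Neuron-like sums held 12.1, 16.8 and 13.5 CPM, which did not pass (0.47, SE 0.26, adjusted p = 0.13). No neighbouring classes in the order of Junb means had ranges that did not overlap. Leaving out aged replicate 1 ended the SGC-like call (adjusted p = 0.091) and the myeloid-like call (adjusted p = 0.14).

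Egr1 was highest in fibroblast-like sums. It stood at 35.6, 44.7 and 82.2 CPM in fibroblast-like sums (133, 76 and 81 UMIs), and every other sum of the 7 larger classes was at 28.0 CPM or less. The contrast was 2.67 on the log2 scale (SE 0.33, adjusted p = 1.9e-07), and it passed under every alternative in which it was tested. Neuron-like sums were lowest, at 2.38, 2.34 and 1.62 CPM, under the free RNA level of 7.91, 9.17 and 8.73 CPM (log2 fold change -2.23, SE 0.46, adjusted p = 0.00015). Fibroblast-like sums did not overlap those of endothelial-like nuclei, next in order at 15.0 ± 11 CPM, nor did MSC-like (6.02 ± 1.4) overlap neuron-like sums.

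Nr4a1 was higher in the glial classes than in neurons in every library. It was at 64.7, 72.4 and 62.5 CPM in NMSC-like sums, at 42.6, 50.6 and 40.6 CPM in SGC-like sums and at 34.4, 42.9 and 46.0 CPM in MSC-like sums, in each case above the free RNA level of 17.2, 13.3 and 10.1 CPM. Neuron-like sums held 6.65, 5.02 and 4.84 CPM, under it. Fibroblast-like sums were at 67.3, 18.8 and 18.3 CPM and myeloid-like sums at 70.3, 14.0 and 23.7 CPM, so that in the adult library both stood above the 3 glial classes and in the aged libraries both stood below them. The NMSC-like range did not overlap the SGC-like one, next in order, while all other neighbours overlapped. The log2 fold changes against the other classes were 1.68 in NMSC-like (SE 0.29, adjusted p = 6.2e-05), 1.12 in SGC-like (SE 0.27, adjusted p = 0.0020) and 0.88 in MSC-like sums (SE 0.31, adjusted p = 0.031), and -2.18 in neuron-like sums (SE 0.39, adjusted p = 2.7e-05). The MSC-like call was lost without aged replicate 1 (adjusted p = 0.074) or 2 (0.29) with scaling by total UMIs (0.059) and in the fit without the cycling and erythroid-like class (0.76, adjusted p = 0.054), and the SGC-like call without aged replicate 2 (0.061). Counted in nuclei thinned to 1000 UMIs, 3.84%, 6.27% and 3.45% of SGC-like nuclei had a Nr4a1 UMI, against 0.805%, 0.615% and 0.317% of neuron-like nuclei. Without thinning the shares were 12.3%, 28.5% and 27.6%, and 7.57%, 6.41% and 7.44%.

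Ier2 was highest in myeloid-like sums (25.4, 9.90 and 9.28 CPM), endothelial-like sums (10.2, 22.0 and 6.42 CPM) and fibroblast-like sums (9.65, 12.3 and 9.13 CPM), whose ranges overlapped. Without the cycling and erythroid-like class it was higher by 1.47 in myeloid-like (SE 0.32, adjusted p = 0.00068, 45.2% of all genes called), by 1.46 in endothelial-like (SE 0.34, adjusted p = 0.0024, 19.7% called) and by 1.01 in fibroblast-like sums (SE 0.28, adjusted p = 0.0077) on the log2 scale. It was lower in neuron-like sums, at 1.71, 2.14 and 1.56 CPM (log2 fold change -1.52, SE 0.27, adjusted p = 4.2e-05). It was also lower in SGC-like (-0.93, adjusted p = 0.020, 32.4% of all genes called) and MSC-like sums (-1.06, adjusted p = 0.034, 33.8% called).

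Of the feedback genes, Dusp1 was at 40.2, 23.5 and 22.3 CPM in fibroblast-like sums and at 29.3, 13.6 and 25.7 CPM in endothelial-like sums. Both were higher than the other classes, by 1.71 (SE 0.27, adjusted p = 1e-05) and by 1.15 (SE 0.36, adjusted p = 0.024) on the log2 scale. Of 3 sums each, 2 fibroblast-like and 1 endothelial-like lay above the free RNA level of their library, and the rest lay under it. Neuron-like sums held 11.0, 16.7 and 12.6 CPM and were also called higher (0.72, SE 0.25, adjusted p = 0.014), but not with scaling by total UMIs (adjusted p = 0.11), which moved the median of all genes in that contrast from 0.10 to -0.14. Nor were they without aged replicate 1 (0.10) or aged replicate 2 (0.13). The neuron-like and SGC-like ranges did not overlap. MSC-like sums were called lower (-1.04, SE 0.39, adjusted p = 0.040), a call lost without aged replicate 1 (0.39) or 2 (0.28) and without the cycling and erythroid-like class (-0.87, 0.079), and the endothelial-like call was lost without the adult library (0.26) or aged replicate 2 (0.12).

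Zfp36 was at 16.1, 17.6 and 13.2 CPM in fibroblast-like sums (log2 fold change 1.08, SE 0.36, adjusted p = 0.023) and at 25.4, 22.3 and 11.3 CPM in myeloid-like sums (1.33, SE 0.40, adjusted p = 0.0091). Without the adult library neither passed (adjusted p = 0.16 and 0.090). Neuron-like sums were lowest, at 1.86, 2.29 and 2.17 CPM (-1.93, SE 0.55, adjusted p = 0.0037). In B cell-like sums the gene had 5, 2 and 11 UMIs, 6 of the 11 in 1 nucleus, and the call there (2.28, SE 0.58, adjusted p = 0.0049) was 0.87 with an adjusted p of 0.41 without aged replicate 2. All neighbouring classes in the order of Zfp36 means had overlapping ranges.

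The heat shock genes were under the free RNA level of the same library in most sums, and below 0.5 times that level in 9 of 21 sums for Hspa1a and 8 of 21 for Hspa1b. Hspa1a was at 19.1, 5.25 and 9.63 CPM in endothelial-like sums (15, 5 and 3 UMIs), against free RNA of 7.98, 7.54 and 6.06 CPM. Its class contrasts in the fit without the cycling and erythroid-like class ran from -1.35 in myeloid-like to 1.44 in endothelial-like sums, the latter with an adjusted p of 0.070. Neuron-like sums held 240, 142 and 60 Hspa1a UMIs (3.69, 3.66 and 2.03 CPM) and 137, 133 and 49 Hspa1b UMIs (2.11, 3.43 and 1.66 CPM). SGC-like sums held 1.36, 5.38 and 2.37 CPM of Hspa1b.

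Within neurons the members were compared between 6 subtypes named from markers: non-peptidergic (NP), peptidergic (PEP), neurofilament (NF), and those marked by Sst, Th and Trpm8. Neuron-like nuclei of no named subtype, 1100, 511 and 262 of them, entered no subtype comparison. Of 48 tests 11 passed, 7 higher and 4 lower, against 33.5% of all genes. PEP-like neurons had 3 of 8 members higher (34.5% of all genes called), TH-like neurons 2 higher and 2 lower (33.9%), and NP-like neurons 1 higher and 1 lower (33.1%). NF-like neurons had 1 lower (49.0%), SST-like neurons 1 higher (27.0%) and TRPM8-like neurons none (23.4%). Fos and Fosb had too few UMIs to be tested.

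Junb, the member with the most UMIs in neuron-like sums, had calls in 5 of 6 subtypes. PEP-like neurons held 28.1, 31.7 and 24.6 CPM, higher than the other subtypes by 1.18 on the log2 scale (SE 0.14, adjusted p = 2.8e-06). SST-like neurons were at 21.9, 22.2 and 17.6 CPM (0.68, SE 0.24, adjusted p = 0.040) and NP-like neurons at 14.7, 18.3 and 18.8 CPM (0.53, SE 0.15, adjusted p = 0.0086). NF-like neurons, at 6.56, 10.2 and 6.63 CPM, were lower (-0.92, SE 0.18, adjusted p = 0.00036), as were TH-like neurons at 8.21, 10.8 and 4.48 CPM (-0.83, SE 0.19, adjusted p = 0.0019). The PEP-like range did not overlap the SST-like one, nor the NP-like range that of TRPM8-like neurons. The NP-like call was lost without aged replicate 2 (adjusted p = 0.19), and the SST-like call without any 1 library (0.10 to 0.16). The free RNA level of Junb was 14.5, 21.8 and 23.4 CPM. All 3 PEP-like values lay above it, as did 2 SST-like values and 1 NP-like value. All NF-like, TH-like and TRPM8-like values lay under it and by level alone cannot be told apart from free RNA.

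Dusp1 was also highest in PEP-like neurons, at 18.8, 31.4 and 23.1 CPM (1.04, SE 0.18, adjusted p = 0.00018), and its range there did not overlap that of TRPM8-like neurons, next in order. Of these values 31.4 CPM lay above the free RNA level of its library, and 18.8 and 23.1 CPM lay under theirs (29.8 and 25.5 CPM). Its levels in the other subtypes ran from 4.15 to 16.4 CPM, all under the free RNA level. Zfp36 was at 3.10, 4.24 and 4.29 CPM in PEP-like neurons (0.89, SE 0.33, adjusted p = 0.042), the first under the free RNA level of its library, but without aged replicate 1 or 2 the adjusted p was 0.20 or 0.12. PEP-like neurons, nociceptors known for the neuropeptides encoded by Calca and Tac1, had the highest Junb and Dusp1 level of the 6 subtypes in each of the 3 libraries.

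TH-like neurons, which are low-threshold mechanoreceptors of hairy skin, had the transcription factors Nr4a1 and Egr1 higher. Nr4a1 was at 12.4, 11.2 and 17.0 CPM (1.72, SE 0.30, adjusted p = 0.00014), with no overlap with NF-like neurons, next in order at 10.6, 4.92 and 4.29 CPM. Egr1 was at 4.88, 4.88 and 3.58 CPM (1.22, SE 0.33, adjusted p = 0.0066, and 0.085 without the adult library). All 3 Egr1 values, and the Nr4a1 values of the adult library and aged replicate 1, lay under the free RNA level of their library. By level alone these values cannot be told apart from free RNA. Hspa1b, with 6, 5 and 2 UMIs, was lower there (-1.58, SE 0.51, adjusted p = 0.022, and 0.12 or 0.11 without aged replicate 1 or 2). In NP-like neurons Nr4a1 was lower, at 3.46, 3.75 and 1.27 CPM (-0.999, SE 0.33, adjusted p = 0.026), which was lost without aged replicate 2 (0.18) or the adult library (0.075).

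**Figure D2:**
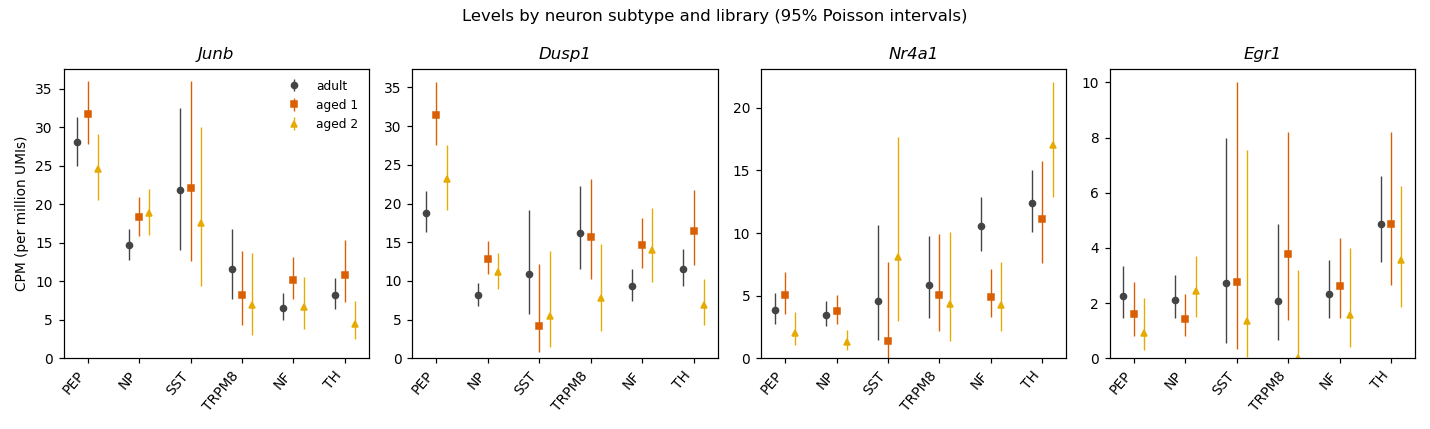
Levels of Junb, Dusp1, Nr4a1 and Egr1 (CPM on a linear axis that differs between panels) in 6 neuron subtypes named from markers, with a point per library and exact Poisson 95% intervals for counting error. PEP-like neurons hold 24.6 to 31.7 CPM of Junb against 4.48 to 10.8 CPM in TH-like neurons, and TH-like neurons hold 11.2 to 17.0 CPM of Nr4a1.

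Each of the PEP, NP, NF and TH subtypes included 1 cluster in which Malat1 took less than 1% of UMIs, 0.335% to 0.552% with the libraries pooled. In single libraries its share in these clusters was 0.650% to 1.09% for the adult and 0.178% to 0.254% for the aged libraries. These clusters were set beside the other clusters of the same subtype and library, in 12 pairs. Hspa1a was higher in the low-Malat1 cluster in 12 of 12 pairs, with a median of 7.46 CPM against 2.47 CPM. Hspa1b was also higher in 12 of 12, with 5.76 CPM against 1.45 CPM. The pairs were counted for the members only. How many of all genes were higher in as many pairs is not known, so the counts are not a trait of these genes alone. For Hspa1a in NF-like neurons the values were 10.5, 5.11 and 12.4 CPM against 2.46, 1.27 and 0 CPM, and for Hspa1b in PEP-like neurons 7.25, 6.08 and 10.5 CPM against 3.49, 3.52 and 1.28 CPM. The free RNA level was 6.06 to 7.98 CPM for Hspa1a and 3.79 to 5.63 CPM for Hspa1b, and 5 of 12 low-Malat1 sums lay above that of their library for Hspa1a and 8 of 12 for Hspa1b, against 0 of 12 of the other sums for both. Most low-Malat1 levels of Hspa1a, and some of Hspa1b, thus by level alone cannot be told apart from free RNA. Many of these sums rest on few UMIs, 116 and 211 in all for Hspa1a in the low-Malat1 and the other clusters and 85 and 166 for Hspa1b.

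Not all members behaved alike in these clusters. Egr1 and Dusp1 were higher in 11 of 12 pairs, with medians of 6.00 against 1.55 CPM and of 22.0 against 10.3 CPM. Of the 12 low-Malat1 sums 3 lay above the free RNA level for Egr1 (7.91 to 9.17 CPM) and 5 for Dusp1 (21.9 to 29.8 CPM), and the rest were at or under it. Ier2 and Zfp36 were higher in 9, Fos and Nr4a1 in 8, Junb in 7 and Fosb in 6. The clusters of low Malat1 also differed in other measures: the mitochondrial share of UMIs was 0.501% to 0.833%, against 0.0646% to 0.217% in the other clusters, and the medians of UMIs were lower in each pair. The part of these measures in the levels was not tested, and no test was made between clusters of the same nuclei. For Hspa1a, Hspa1b, Egr1 and Dusp1, the pooled levels of a subtype therefore also depend on how many of its nuclei were of low Malat1.

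**Figure D3:**
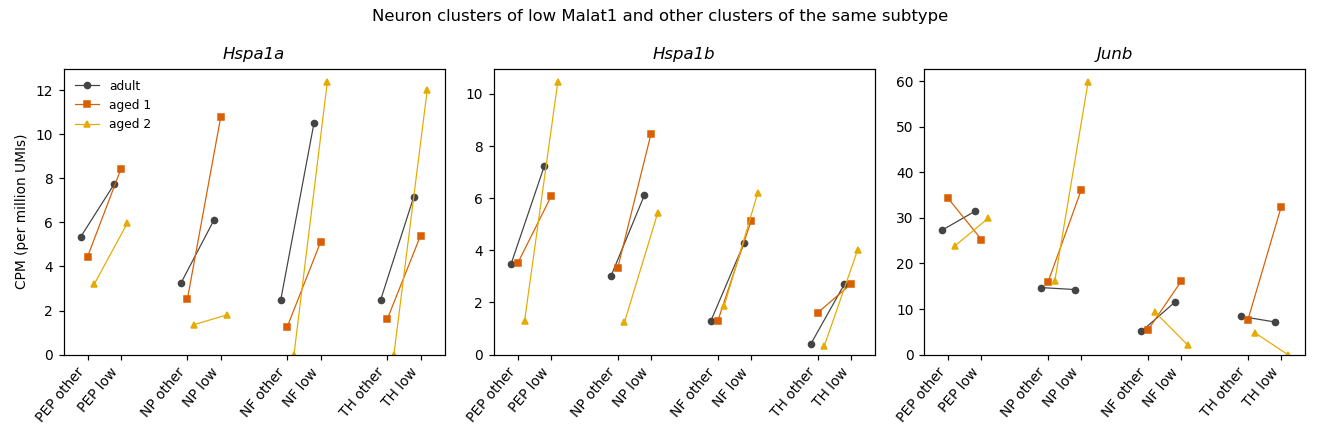
Levels of Hspa1a, Hspa1b and Junb (CPM on a linear axis that differs between panels) in the neuron cluster of low Malat1 (low) and in the other clusters (other) of the same subtype, with a line for each of the 3 libraries. All 12 lines go up from other to low for Hspa1a and for Hspa1b, against 7 of 12 for Junb.

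Few nuclei held UMIs of several members. In fibroblast-like nuclei 34, 13 and 8 had 3 or more of the 8 immediate early members (2.87%, 3.39% and 4.23%), and up to 6 members were seen in 1 nucleus. In neuron-like nuclei, whose median UMIs were 7537, 5877.5 and 7780, the counts were 88, 87 and 56 (2.02%, 3.82% and 4.43%), and in SGC-like nuclei 10, 9 and 5 (0.300%, 1.71% and 1.92%). In nuclei thinned to 1000 UMIs 2 or more members were found in 1.86%, 1.04% and 2.12% of fibroblast-like nuclei, against 0.115%, 0.0879% and 0.0792% of neuron-like nuclei. Egr1 was found in 21.6%, 19.4% and 16.3% of nuclei with a Fos UMI, against 3.43%, 3.08% and 3.34% of all nuclei in named classes. This pair was printed for its size among the 7 pairs of Fos with another immediate early member, after the values were seen. The share of Fos nuclei was 15.0%, 26.9% and 28.6% for Junb against 6.66%, 11.1% and 11.4% of all nuclei, and nearer to that of all nuclei for Zfp36, at 3.27%, 6.45% and 6.12% against 2.17%, 3.81% and 4.12%. Fosb was found with Fos in 7, 0 and 0 nuclei. The nuclei with Fos were also deeper, with medians of 4393, 8514 and 11500 UMIs against 3319, 4585 and 5239. These shares pool all named classes, and both Fos and Egr1 were higher in fibroblast-like than in neuron-like sums. The part of class and of depth in the overlap was not tested. Hspa1a and Hspa1b were found together in 16, 19 and 7 nuclei, 5.61%, 10.5% and 9.59% of those with Hspa1a. Hspa1b was in 1.43%, 3.38% and 2.64% of all nuclei in named classes. The nuclei with Hspa1a were deeper, with median UMIs of 14298, 16463 and 16667, and the part of depth and of class was not tested here either.

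Adult and aged libraries were then compared in each class, with 1 residual degree of freedom that comes from the aged libraries. The adult library is thus assumed to vary like them. With so few libraries the spread of a gene was estimated mostly from all genes together. A small p thus does not show that its own aged libraries were close to each other. Over 9 classes 5 of 55 tests on members passed, 1 higher and 4 lower in the aged libraries, against 7.46% of all genes tested. An unadjusted p under 0.05 was found in 11. Among all genes it was found in 4216 of 15622 in SGC-like, 3336 of 12027 in myeloid-like and 4359 of 21822 in neuron-like sums. The counts were 2143 of 12881 in NMSC-like, 1598 of 13770 in fibroblast-like and 1062 of 11359 in endothelial-like sums. These are the classes that held the 11. DESeq2 called 0 of the members that it could test. In simulated data of this design, 4-fold changes were called in 86% of cases in SGC-like and 92% in neuron-like sums, and 2-fold changes in 17% and 51%. The changed genes were drawn at random above a minimum of UMIs, with 1 fixed dispersion for all genes. These rates thus need not hold for members of few UMIs, and the other classes were not simulated. In bulk sums of a class, fewer nuclei that express a gene and less RNA per nucleus cannot be told apart.

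**Figure D4:**
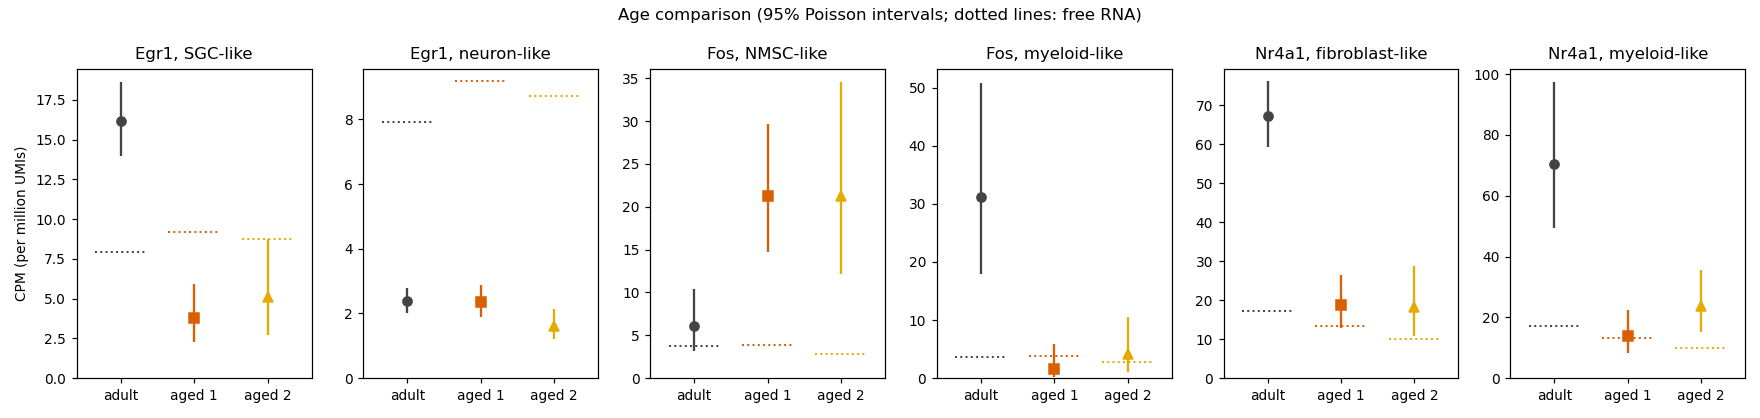
Levels of the members whose age comparison passed, and of Egr1 in neuron-like sums, in each library (CPM on a linear axis that differs between panels), with exact Poisson 95% intervals for counting error and dotted lines at the free RNA level of each library. Egr1 in SGC-like sums stands at 16.2 CPM for the adult and, under the dotted lines, at 3.78 and 5.13 CPM for the aged libraries, while Fos in NMSC-like sums is at 6.05 against 21.2 and 21.3 CPM.

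In neuron-like sums 0 of 10 members passed (9.03% of all genes did). Of these members 1 had an unadjusted p under 0.05, as did 4359 of 21822 genes. The log2 fold changes ran from -0.55 for Nr4a1 to 0.29 for Dusp1, with SE of 0.24 to 0.64. MSC-like sums had 0 of 8 (8.14% of all genes), endothelial-like sums 0 of 7 (0.951%) and B cell-like sums 0 of 1 (1.75%), and no member could be tested in the cycling and erythroid-like sums.

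In SGC-like sums 1 of 9 members passed (11.7% of all genes). Egr1 fell from 16.2 CPM (191 UMIs) in the adult library to 3.78 (19 UMIs) and 5.13 CPM (13 UMIs) in the aged libraries, a change of -2.10 on the log2 scale (SE 0.33, adjusted p = 0.0013). Both SGC-like clusters showed it, at 15.2, 4.21 and 4.82 CPM and at 22.1, 2.45 and 6.51 CPM. The aged levels lay under the free RNA level, and 8 of the 19 UMIs of aged replicate 1 and 6 of the 13 of aged replicate 2 came from 1 nucleus each. In nuclei thinned to 1000 UMIs the shares with an Egr1 UMI were 1.35%, 0.380% and 0.383% (Clopper-Pearson 95% intervals 0.986% to 1.80%, 0.0461% to 1.37% and 0.0097% to 2.12%). The call was lost with no filter on low counts (-2.11, adjusted p = 0.22) and with more than 2000 genes per nucleus (-1.78, 0.31), under which 0 of 25809 and 0 of 15477 genes were called in this class, although 3703 and 2355 had an unadjusted p under 0.05. It was also lost with DESeq2 (-2.06, 0.056), which called 520 of 15622 genes, and with nuclei assigned by marker level (-0.65, 0.18).

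The other 8 SGC-like members tested did not pass. Nr4a1, the member with most UMIs in that class, was at -0.07 on the log2 scale (SE 0.19, adjusted p = 0.86), Junb at 0.02 (SE 0.43) and Dusp1 at 0.09 (SE 0.40). SGC-like nuclei of the aged libraries were deeper, with median UMIs of 7282.5 and 7947 against 3224. In the same sums all 9 of 9 neuron markers had UMIs in each library and were higher in both aged libraries, with a summed level of 1827 CPM in the adult library and of 3020 and 2461 CPM in the aged ones. The Malat1 share given above also differed, and the part of these measures in the Egr1 result was not tested.

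The age effects of SGC-like and neuron-like sums were compared with an interaction term. Of 10 members 1 passed, Egr1 (4.26% of all genes passed), with a difference of 1.68 on the log2 scale (neuron-like minus SGC-like, SE 0.49, adjusted p = 0.044). In neuron-like sums alone Egr1 was at -0.37 (SE 0.35, adjusted p = 0.60). The interaction was lost with more than 2000 genes per nucleus (adjusted p = 0.33), with free RNA subtracted (0.31) and with nuclei assigned by marker level (0.85), and the difference was 1.11 without aged replicate 1.

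In NMSC-like sums 1 of 7 members passed (6.98% of all genes). Fos rose from 6.05 CPM (13 UMIs) to 21.2 (34 UMIs) and 21.3 CPM (16 UMIs), a change of 1.62 on the log2 scale (SE 0.54, adjusted p = 0.040). Nuclei with a Fos UMI were 11, 21 and 11, and up to 9 UMIs of aged replicate 1 came from 1 nucleus. The filter on low counts keeps a gene that is high enough in 1 library. Fos passed it here only through the aged libraries, where it was high. In the same sums all 8 of 8 fibroblast markers had UMIs in each library, 6 were higher and 1 lower in both aged libraries, and their summed level was 386 CPM against 1151 and 1084 CPM, and Malat1 took 7.98% of the UMIs against 1.93% and 2.06%. Median UMIs were 2507 against 4037.5 and 4066, and the part of these measures in the result was not tested. The call was lost under 6 of the 7 alternatives that could be tested, and with nuclei assigned by marker level the sign turned (-1.13, adjusted p = 0.32).

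In fibroblast-like sums 1 of 7 members passed (2.26% of all genes). Nr4a1 fell from 67.3 CPM (251 UMIs) to 18.8 (32 UMIs) and 18.3 CPM (18 UMIs), a change of -1.94 on the log2 scale (SE 0.31, adjusted p = 0.0037). In nuclei thinned to 1000 UMIs the shares with a Nr4a1 UMI were 5.57%, 0.783% and 0.529%. It passed with more than 2000 genes per nucleus (adjusted p = 0.037) and with nuclei assigned by marker level (-1.38, 0.00022), and not with DESeq2 (0.14), free RNA subtracted (0.15) or nuclei thinned to 1000 UMIs (-3.17, 0.38), where 0 of 9172 genes were called by edgeR and 957 had an unadjusted p under 0.05. In the same sums all 8 of 8 NMSC markers had UMIs in each library, 6 higher and 1 lower in both aged libraries, with a summed level of 2134 CPM against 3919 and 4287 CPM. Malat1 took 4.96% of the UMIs against 2.03% and 2.03%, and the part of these measures in the result was not tested.

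The 3 fibroblast-like clusters were not alike. Nr4a1 was at 78.7, 22.2 and 15.3 CPM in the cluster led by Ttn, Ccdc33 and Pax9, whose leading genes include the muscle genes Ttn, Myh2 and Myh7 although it had 4 fibroblast markers. It was at 75.7, 12.6 and 13.5 CPM in the cluster led by Slc47a1, and at 19.2, 19.9 and 25.4 CPM in the cluster led by Mmp2 and Lum. Junb was at 12.1, 29.1 and 53.7 CPM in the first of these, at 26.4, 18.8 and 24.3 CPM in the second and at 4.80, 53.7 and 50.7 CPM in the last. Egr1 was at 37.8, 52.7 and 53.7 CPM, at 37.0, 35.6 and 32.4 CPM and at 27.2, 41.7 and 155 CPM in that order, so that its high level did not rest on the cluster with muscle genes. The 155 CPM came from 55 UMIs in 11 nuclei, with 13 of these UMIs in 1 nucleus. These values are on 3 to 135 UMIs each and were not tested against each other. In the class as a whole Junb was at 0.98 on the log2 scale (SE 0.36, adjusted p = 0.22) and Egr1 at 0.71 (SE 0.35, adjusted p = 0.48).

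**Figure D5:**
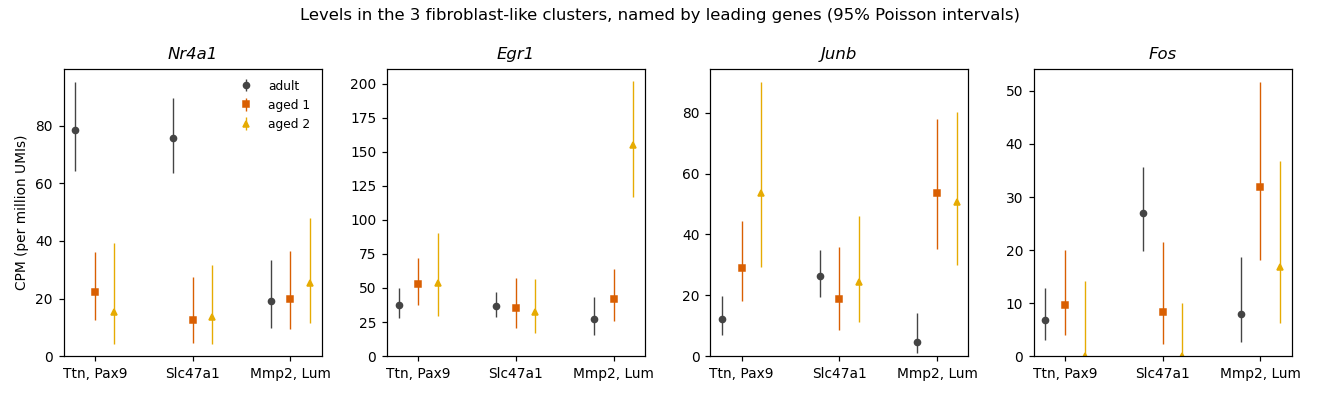
Levels of Nr4a1, Egr1, Junb and Fos (CPM on a linear axis that differs between panels) in the 3 fibroblast-like clusters, each named on the horizontal axis by leading genes, with a point per library and exact Poisson 95% intervals for counting error. Nr4a1 is at 75.7 to 78.7 CPM for the adult library and at 12.6 to 22.2 CPM in the aged libraries in 2 clusters, and at 19.2 to 25.4 CPM in all libraries in the cluster led by Mmp2 and Lum.

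In myeloid-like sums 2 of 6 members passed (15.0% of all genes). Fos fell from 31.3 CPM (16 UMIs) to 1.65 (2 UMIs) and 4.12 CPM (4 UMIs), a change of -3.40 on the log2 scale (SE 0.85, adjusted p = 0.010). Nr4a1 fell from 70.3 CPM (36 UMIs) to 14.0 (17 UMIs) and 23.7 CPM (23 UMIs), a change of -1.88 on the log2 scale (SE 0.43, adjusted p = 0.0052). Fos passed the filter on low counts only through the adult library, where it was high. Egr1 and Junb were at -0.16 (SE 0.67) and -0.30 (SE 0.50). With free RNA subtracted neither passed (adjusted p = 0.12 for Fos and 0.10 for Nr4a1), nor with nuclei assigned by marker level (0.21 and 0.12). With more than 2000 genes per nucleus Nr4a1 did not pass (-1.91, adjusted p = 0.087) and Fos could not be tested, and with DESeq2 Nr4a1 did not pass (0.25) and Fos had no adjusted p. All 9 of 9 neuron markers had UMIs in the myeloid-like sums of each library and were lower in both aged libraries, with a summed level of 2977 CPM against 1140 and 938 CPM. Of 7 T cell markers, none at 0, 6 were lower in both, with 793 CPM against 502 and 307 CPM. Median UMIs were 2126 against 3220 and 3538, and the part of these measures in the results was not tested.

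Other genes of the same programmes were counted in the age comparison from 4 lists. In SGC-like sums 4 of 11 other immediate early transcription factors passed, 2 higher and 2 lower, beside the 11.7% of all genes. Jun, the partner of Fos in AP-1, rose from 28.9 to 72.1 and 67.4 CPM (1.09, SE 0.18, adjusted p = 0.0016). Egr3, a paralog of Egr1, fell from 42.7 to 17.1 and 13.4 CPM (-1.63, SE 0.21, adjusted p = 0.00027), and Klf10 from 21.1 to 11.1 and 8.67 CPM (-1.24, SE 0.26, adjusted p = 0.0086). Of 26 effectors and feedback genes 3 were higher and 1 lower. Nfkbia, the inhibitor of NF-kappa B, fell from 40.1 to 19.1 and 27.6 CPM (-1.01, SE 0.22, adjusted p = 0.010). Bdnf rose by 1.08 (SE 0.29, adjusted p = 0.026) and Rhob by 0.82 (SE 0.22, adjusted p = 0.028).

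Of 26 other chaperones tested in SGC-like sums 4 were higher and 1 lower (19.2%, beside the 11.7% of all genes). Hspb8, a small heat shock protein, rose from 27.5 to 56.7 and 55.2 CPM (0.84, SE 0.19, adjusted p = 0.010) and Hsp90aa1 from 319 to 672 and 505 CPM (0.70, SE 0.17, adjusted p = 0.017). Ahsa1, which activates the ATPase of HSP90, fell from 24.1 to 14.5 and 9.07 CPM (-1.14, SE 0.26, adjusted p = 0.013). None of 7 upstream factors passed. Several of the genes that were higher are more abundant in neuron-like sums, where the adult library held 671 CPM of Hsp90aa1, 81.9 CPM of Hspb8 and 43.1 CPM of Bdnf, and the 9 neuron markers were higher in the aged SGC-like sums as given above (1827 against 3020 and 2461 CPM), whose part in these calls was not tested. The medians of the lists were 0.31, 0.02, 0.21 and 0.07, against 0.00 over all genes. The 13 calls on list genes in SGC-like sums came to 3 with DESeq2, which called 520 of 15622 genes, and to 0 with no filter on low counts or with more than 2000 genes per nucleus, which called no gene of any kind in this class.

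In neuron-like sums, where no member passed, 5 of 16 other transcription factors did (9.03% of all genes). Atf3, a factor induced by axon injury, rose from 3.13 to 19.1 and 8.93 CPM (2.04, SE 0.28, adjusted p = 8.7e-11). Fosl1 fell by 2.00 (SE 0.42, adjusted p = 0.00011) and Klf10 by 0.96 (SE 0.22, adjusted p = 0.00064) on the log2 scale. Of the chaperones 1 of 26 passed, Ahsa1, which fell from 38.6 to 21.6 and 16.7 CPM (-1.13, SE 0.22, adjusted p = 1.3e-05). None of 28 effectors or 7 upstream factors passed. The clusters of low Malat1 held 17.7% of adult and 37.5% and 27.9% of aged neuron-like nuclei, and Malat1 took 4.34%, 1.36% and 1.56% of the neuron-like UMIs, whose part in these calls was not tested. In myeloid-like sums 11 of 25 chaperones were lower and none higher (15.0% of all genes passed), with a median of -0.79 against 0.00 over all genes. The neuron markers were also lower in the aged myeloid-like sums (2977 against 1140 and 938 CPM), and their part in these calls was not tested. In MSC-like sums 5 of 26 chaperones were lower and none higher, where 8.14% of all genes passed. There all 9 neuron markers were lower in both aged libraries (2427 against 1829 and 1583 CPM), and of 8 NMSC markers 4 were higher and 2 lower (1593 against 2827 and 2787 CPM). The 8 MSC markers summed to 41890 against 17984 and 16516 CPM, although 4 of them were higher and 3 lower in both aged libraries. Malat1 took 6.41% against 2.03% and 2.04%. The part of these measures was not tested. Of the other transcription factors 5 of 12 passed in NMSC-like sums, 4 higher and 1 lower (6.98% of all genes). In fibroblast-like sums 3 of 11 passed, all lower (2.26%), and in myeloid-like sums 4 of 10, 1 higher and 3 lower (15.0%). The part of the marker shifts given above for these classes was not tested.

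Over 27 sums of 9 classes in 3 libraries, the genes whose log2 CPM was most like that of the 8 immediate early members together were Arcn1 (Pearson r = 0.82), Twist2 (0.80) and Crispld2 (0.79), of 13755 genes compared. For Hspa1a and Hspa1b together they were Mrpl16 (0.82), Mtap (0.80) and Crtap (0.78). The sums of 1 library share that library and those of 1 class share its cells, and many are of few UMIs, so these values only describe the sums.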

How the data were processed

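RNA of isolated DRG nuclei was counted with PIP-seq, in which barcoded beads capture single nuclei. The authors deposited UMI counts of each gene in each barcode, not normalized, from Pipseeker; the labels name the build mm10. Barcodes with more than 1000 genes, the study's minimum, were kept. Nuclei were normalized with SCTransform (0.4.2), integrated by reciprocal PCA over 30 components and clustered (Seurat 5.3.0, R 4.3.3, resolution 0.8), with members and list genes left out of the 3000 variable features (2979 remained). Clusters were named, by a rule written after the clusters had been seen, from at least 3 markers with a 2-fold higher level and a UMI in 10% of nuclei, and mixed (502, 462 and 171 nuclei) and unnamed clusters (138, 21 and 12) were left out; doublets were treated only through the mixed clusters. A cluster with markers of both SGC and NMSC was not called mixed, nor was one with markers of both cycling and erythroid cells. Members and lists were chosen with earlier results of these data known.

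UMIs were summed by library and class (20 or more nuclei per library) and tested with edgeR 4.0.16 (TMM, filterByExpr, quasi-likelihood), with Benjamini-Hochberg adjustment over all genes and a threshold of 0.05. The study's test on nuclei was not used, since nuclei are not replicates. The alternatives were DESeq2 1.42.0, total UMIs, no filter, more than 2000 genes, assignment by marker level, free RNA subtracted at 10%, nuclei thinned to 1000 UMIs and each library left out. The tests were tested on simulated data. Intervals of CPM are exact Poisson and of shares Clopper-Pearson, both at 95% and for counting error only, and a sum with 0 UMIs allows 3. Named genes were the members, up to 3 genes per list with the smallest p in SGC-like and neuron-like sums, and the 3 most like each group of members; Btg2 and Hspb1 were named after their values were seen.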

Additional observations from a re-analysis of the deposited data

Results flagged for a closer look

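Egr1 differed in its age effect between neuron-like and SGC-like sums, by 1.68 on the log2 scale in an interaction test (SE 0.49, adjusted p = 0.044). The call was lost with more than 2000 genes per nucleus, with free RNA subtracted, with nuclei assigned by marker level and in thinned nuclei, and the difference was 1.11 without aged replicate 1. Egr1 fell in both aged libraries in SGC-like sums, and was at 2.38, 2.34 and 1.62 CPM in neuron-like sums.

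Fos moved in opposite directions with age in NMSC-like sums (1.62 on the log2 scale) and myeloid-like sums (-3.40), with both aged libraries on the same side of the adult library in each class. The difference itself was not tested. In each class Fos passed the filter on low counts only on the side where it was high. That was the aged libraries in NMSC-like sums and the adult library in myeloid-like sums. The NMSC-like value turned its sign with nuclei assigned by marker level (-1.13) and its call was lost under 6 of the 7 alternatives that could be tested. The myeloid-like call was lost with free RNA subtracted and with assignment by marker level.

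An unnamed cluster that entered no comparison, with Ranbp3l, Ptgds, Slc6a20a and Aldh1a2 among its leading genes, held 47.6, 30.8 and 25.1 CPM of Dusp1 in 138, 21 and 12 nuclei, on 25, 3 and 2 UMIs. The free RNA level of Dusp1 was 29.8, 21.9 and 25.5 CPM.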

How the results depend on the processing

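Counts of members past the threshold depended on the processing for the age comparison. Calls over all members, 5 in the report, came to 0 with DESeq2, 3 with no filter on low counts, 1 with more than 2000 genes per nucleus, 3 with assignment by marker level, 1 with free RNA subtracted and 0 of 14 tests in nuclei thinned to 1000 UMIs. Of the same 5 calls, assignment by marker level kept 1, no filter 3 and total UMIs 5. Interaction calls, 1 in the report, came to 0 with more than 2000 genes, marker level, free RNA subtracted and thinned nuclei, and to 0 with DESeq2, which gave Egr1 no adjusted p. Class calls, 17 in the report, came to 3 of 9 tests in thinned nuclei, which have few UMIs, to 8 to 13 without 1 library and to 16 to 25 under all other alternatives, new calls included. Of the same 17, the number kept was 13 with marker level and with more than 2000 genes, 15 with total UMIs and without the cycling and erythroid-like class, 16 with free RNA subtracted, and 17 with DESeq2 and no filter. The 25 were without the cycling and erythroid-like class, which was added after seeing the data. Subtype calls, 11 in the report, came to 6 to 9 without 1 library and 9 to 14 otherwise, with 6 to 8 and 9 to 11 of the same calls kept. List genes past the threshold went from 13 to 3 with DESeq2 and 0 with no filter or with more than 2000 genes in SGC-like sums, and from 6 to 3 with DESeq2 in neuron-like sums. Of single values, 1 turned its sign, Fos in NMSC-like sums (-1.13 with assignment by marker level), and the cause was not tested. Without 1 aged library the age comparison gives values with no test. No paired analysis was possible because the adult group has 1 library and the groups share only 1 replicate number.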

Other observations

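Jun, which pairs with Fos and is induced in injured sensory neurons, was ordered differently from Junb between neuron subtypes. These genes were singled out after their values were seen, and the values describe them against the mean of the other subtypes. Jun was higher in NF-like neurons by 1.63 on the log2 scale (SE 0.23, adjusted p = 7.3e-06), where Junb was at -0.92 (SE 0.18, adjusted p = 0.00036). In PEP-like neurons both were higher, Jun by 1.18 (SE 0.22, adjusted p = 0.00044) and Junb by 1.18 (SE 0.14, adjusted p = 2.8e-06). In TH-like neurons both were lower, with -2.23 (SE 0.32, adjusted p = 1.7e-05) for Jun and -0.83 (SE 0.19, adjusted p = 0.0019) for Junb. Atf3, another AP-1 partner, was higher in NF-like neurons (1.96, SE 0.31, adjusted p = 3.6e-05). The antiproliferative gene Btg2 was higher in PEP-like neurons (2.44, SE 0.19, adjusted p = 9.7e-09), and so was the small heat shock gene Hspb1 (1.08, SE 0.13, adjusted p = 3.9e-06), which was also higher in NF-like neurons (0.83, SE 0.14, adjusted p = 7.1e-05). Of all genes 49.0% passed in the NF-like, 34.5% in the PEP-like and 33.9% in the TH-like contrast. Apart from Junb, these genes were not set against the free RNA level or split by the clusters of low Malat1. The differences between Jun and Junb were not tested.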
